A study of Caenorhabditis elegans with 2 samples.

Results

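The 10 genes described here encode the Wnt and beta-catenin asymmetry machinery of the Caenorhabditis elegans embryo, out of 19973 protein-coding genes on the nuclear chromosomes. They were chosen by name, with earlier results of these same peak lists known, as mom-1, mom-2, mom-5, dsh-2, wrm-1, sys-1, bar-1, hmp-2, lit-1 and pop-1. A peak was put at a gene when its summit, the position of highest signal, lay in the gene body or up to 1000 bp upstream of any annotated transcript 5′ end. That rule reads the peak lists themselves, so every count below is a description without a test.

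The peaks come from chromatin immunoprecipitation and sequencing of T22C8.4, which RefSeq annotates as a C2H2-type zinc finger protein, tagged with enhanced GFP and recovered with an anti-GFP antibody. Both samples were whole mid-stage embryos of strain OP785, collected by egg bleaching at a labelled age of 2 hours. This strain carries the transgene wgIs785, a T22C8.4::TY1 EGFP 3xFLAG fusion with an unc-119(+) rescue gene, over the unc-119(tm4063) mutation, and both samples share all of it. The samples are biological replicates 1 and 2 of 1 group. No second condition, untagged strain or control alignment was analysed here. Whole embryos mix all cell types, so a peak carries no information on the cells in which the protein was bound. The fusion is made from a transgene, and the T22C8.4 made from its own locus was not measured by this antibody.

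Many divisions of the early worm embryo place unequal amounts of nuclear TCF and beta-catenin in the daughter cells. In the cell whose posterior daughter founds the gut, the Wnt ligand MOM-2 from a neighbouring cell acts through the Frizzled receptor MOM-5 and Dishevelled. The beta-catenin WRM-1 then works with the kinase LIT-1 to lower nuclear POP-1, the worm TCF, while the beta-catenin SYS-1 serves as the coactivator of the POP-1 that remains. The worm divides the jobs of beta-catenin among several proteins: BAR-1 serves the canonical pathway and HMP-2 serves cell adhesion.

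Of the 10 genes, 5 held a summit of the main list, which the authors called on both replicates together: mom-1, dsh-2, wrm-1, sys-1 and lit-1. By the same rule 1817 protein-coding genes, 9.1% of all, held one. These 5 genes held 8 of the 2415 main-list peaks, 4 of them upstream of the gene and 4 inside it. The 8 peaks had signal values, the peak caller's own measure of enrichment without unit, from 54.9 to 323, and 5 of the 8 exceeded the main-list median of 105. The other 5 genes, mom-2, mom-5, bar-1, hmp-2 and pop-1, held no kept summit. By this rule the kept sites fell on the acyltransferase that prepares Wnt ligands, a Dishevelled, both beta-catenins of the asymmetry pathway and its kinase. The ligand, the receptor, the canonical and adhesion beta-catenins and the TCF had none in this window. The division depends on the rule and the list. Only mom-1, sys-1 and lit-1 had a summit in each replicate's own list. With each summit given only to the nearest protein-coding 5′ end, mom-1 had none. With 2000 bp upstream, hmp-2 and pop-1 had one.

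The DNA around 5 of the 8 summits is shown because it carries the features to which the results refer, namely a tRNA gene and a pair of 6-base words. All stretches are the plus strand of WBcel235, the same assembly as the ce11 of the files, and lie around the summit. Capitals mark the whole tRNA gene in the first stretch and the word ATCGAT or ATTGAT in the others. The dsh-2 stretch ends early, at the next gene's annotated transcript.
mom-1 upstream (chrX:6292264-6292384): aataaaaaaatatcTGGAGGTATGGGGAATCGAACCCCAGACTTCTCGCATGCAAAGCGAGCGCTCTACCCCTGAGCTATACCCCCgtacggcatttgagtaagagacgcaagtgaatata
mom-1 intron (chrX:6296483-6296603): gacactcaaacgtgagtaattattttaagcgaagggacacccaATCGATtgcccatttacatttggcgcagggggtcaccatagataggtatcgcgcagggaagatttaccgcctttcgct
dsh-2 upstream (chrII:5081409-5081489): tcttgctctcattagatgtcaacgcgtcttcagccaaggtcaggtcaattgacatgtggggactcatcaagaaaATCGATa
wrm-1 upstream (chrIII:5722001-5722121): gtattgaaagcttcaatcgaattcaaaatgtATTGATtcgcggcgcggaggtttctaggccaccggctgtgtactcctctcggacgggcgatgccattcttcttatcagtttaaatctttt
lit-1 intron (chrIII:13704126-13704246): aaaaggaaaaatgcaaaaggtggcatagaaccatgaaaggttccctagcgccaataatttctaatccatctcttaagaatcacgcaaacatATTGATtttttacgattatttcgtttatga

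**Figure D1:**
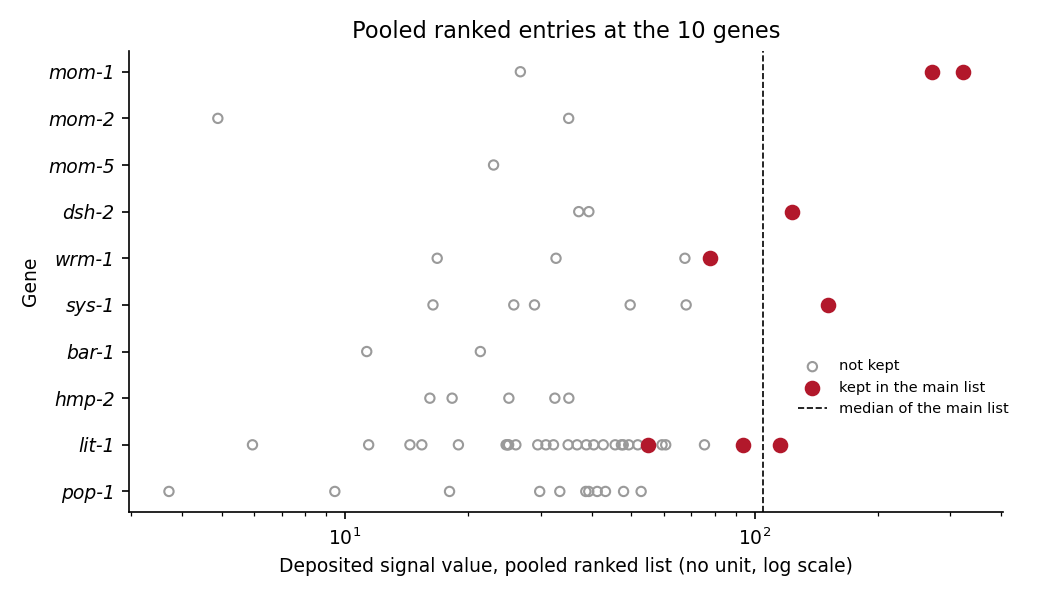
Signal values (no unit, log scale) of all entries of the pooled ranked list with a summit at each of the 10 genes. Filled points are the 8 kept main-list peaks, open points are entries that were not kept, and the dashed line is the main-list median of 105. The mom-1 peaks, at 271 and 323, lie to the right of every other point, while mom-2, mom-5, bar-1, hmp-2 and pop-1 have open points only.

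The gene mom-1 encodes the Porcupine acyltransferase, which adds the lipid that Wnt ligands need for secretion. It lies on the plus strand of chromosome X from 6293112 to 6298305 and held the strongest peaks of the group. Its upstream peak (X, 6292239 to 6292380) had a signal value of 323 and the highest score the files allow, 1000, where the score is a transform of the irreproducible discovery rate (IDR) between rankings. It ranked 116 of 2415, within the top 4.80% of the main list. In the separate ranked lists, its signal value was 183 in replicate 1 and 141 in replicate 2, and both replicates kept it. Its second peak (X, 6296462 to 6296632), in an intron 3431 bp past the start, had a signal value of 271 and ranked 197. There the signal value was 127 in replicate 1 and 140 in replicate 2, and both replicates kept it. Signal values are not scaled between lists, so they are read by rank within each list. Both sites stood within the top 0.784% of the 38917 and 38294 ranked entries of the replicates.

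The upstream mom-1 site cannot be assigned to mom-1 alone. Its summit, 788 bp upstream of mom-1, lay inside a tRNA gene (WBGene00023133, X, 6292278 to 6292349, minus strand), annotated by RefSeq as an alanine tRNA. The nearest protein-coding 5′ end was that of lev-9, a muscle acetylcholine receptor clustering gene on the minus strand, 592 bp away. The peak is therefore in a promoter shared by mom-1 and lev-9, with a tRNA gene at its centre. The tRNA gene's sequence is shared exactly by 8 annotated tRNA genes, itself included, 4 of which held a main-list summit, against 178 of all 612 tRNA genes (29.1%). Reads within it cannot be assigned to 1 copy by sequence, and the labels do not say how the authors placed such reads. The intron peak has no such neighbour: no tRNA gene lay within 4194 bp, and the nearest protein-coding 5′ end, of cest-16, was 3399 bp away. When each summit was given only to the protein-coding gene with the nearest 5′ end, mom-1 lost both peaks and the count became 4 of 10 genes, against 6.85% of all protein-coding genes.

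The gene mom-2 encodes the Wnt ligand of the early embryo (V, 8355988 to 8358185, plus strand) and mom-5 encodes a Frizzled receptor (I, 9965574 to 9970037, plus strand). Neither had a kept peak in any list. The best pooled ranked entry at mom-2 lay 59 bp upstream (V, 8355784 to 8356073), with a score of 27, the lowest in that list, and a signal value of 35.1. It ranked 21794 of 55975 entries. Replicate 2 listed it with a signal value of 18.3, and replicate 1 had no overlapping entry. The only entry at mom-5, 846 bp upstream, had a score of 27 and a signal value of 23.0, and neither replicate's ranked list had an entry there. The median signal value of the pooled ranked list was 31.2, so the mom-2 entry stood slightly above and the mom-5 entry below the middle of the ranking.

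The gene dsh-2 encodes a Dishevelled, the adaptor that relays the signal from Frizzled inside the cell (II, 5078233 to 5081174, minus strand). Its peak (II, 5081324 to 5081613) had its summit 295 bp upstream, with a score of 1000, a signal value of 123 and rank 911 in the main list. In replicate 2 the signal value was 68.8, rank 806, and the peak was kept with a score of 1000. In replicate 1 the signal value was 55.7, rank 1420, and the score of 182 kept it out of that list. The ranks of the site were thus within the top 3.65% of entries in both replicates, while only replicate 2 kept it. No other protein-coding 5′ end lay nearer. The summit was 21 bp from the 3′ end of the next gene on the same strand, C04G6.4 (WBGene00015454, II, 5081490 to 5083441).

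The beta-catenins divided. The gene wrm-1 (III, 5722850 to 5727115, plus strand) encodes the beta-catenin that activates LIT-1. Its kept peak (III, 5721916 to 5722205) lay 789 bp upstream, with a score of 859 and a signal value of 77.7, rank 1988. Replicate 2 kept it, with a signal value of 59.3 and rank 1059 of its ranked entries. Replicate 1 did not: its signal value was 22.2 and its rank 15059, with a score of 47. Among the 8 peaks, this was the one whose replicate ranks lay farthest apart, at 38.7% and 2.77% of the entries. It was also absent from the conservative list, in which 4 of the 10 genes kept a peak against 8.79% of all protein-coding genes.

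The next entry at wrm-1 was just outside the threshold and had the opposite pattern. It lay in a coding exon 120 bp past the first 5′ end (III, 5722825 to 5723114), with a score of 764 and a signal value of 67.5. Replicate 1 listed it with a signal value of 48.8 and rank 1812, and replicate 2 had no overlapping entry. The lowest kept score in the main list was 830. The kept members closest to that limit were the wrm-1 peak at 859 and a lit-1 peak at 854, and the closest outside it were the wrm-1 exon entry at 764 and a lit-1 entry at 632.

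The gene sys-1 encodes the beta-catenin that acts as coactivator of POP-1 (I, 9980063 to 9984794, minus strand). Its peak (I, 9984721 to 9985010) was the closest of the 8 to an annotated 5′ end, with the summit 72 bp upstream of the first. The score was 1000 and the signal value 151, rank 613. Replicate 1 gave a signal value of 84.1 and rank 670, and replicate 2 gave 67.5 and rank 836. Both replicates kept the peak with a score of 1000. No other gene's 5′ end lay within 1000 bp of the summit, and no other gene's body held it. A further 5 ranked entries lay within sys-1 and were not kept, the highest score among them being 263 and the highest signal value 68.0.

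The genes bar-1 and hmp-2 encode the beta-catenins of canonical signalling and of adherens junctions, and neither had a kept peak in the window. The best entry at bar-1 (X, 7166005 to 7170625, minus strand) lay in a coding exon 3081 bp past the start, with a score of 27 and a signal value of 21.4. Replicate 2 listed that site with a signal value of 20.7 and replicate 1 had no entry. The best at hmp-2 (I, 14738882 to 14742671, plus strand) lay in an intron, with a score of 72 and a signal value of 35.2, and again only replicate 2 had an entry, with a signal value of 16.6. Farther upstream of hmp-2, however, lay a strong main-list peak (I, 14737460 to 14737554). Its summit was 1339 bp from hmp-2 and 159 bp from K05C4.7, the nearest protein-coding 5′ end. Its signal value of 251 ranked 235 in the main list, with 118 in replicate 1 and 128 in replicate 2, and both replicates kept it.

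The gene lit-1 encodes the Nemo-like kinase that, together with WRM-1, phosphorylates POP-1. At 22414 bp (III, 13701991 to 13724404, plus strand) it is longer than 99.2% of protein-coding genes, and it held 28 entries of the pooled ranked list, 3 of them kept. The strongest (III, 13723395 to 13723684) lay in the 3′ UTR with a score of 1000 and a signal value of 115. It was kept in both replicates, with a signal value of 60.4 in replicate 1 and 52.3 in replicate 2. The next summit (III, 13722505 to 13722794), 890 bp away in a coding exon, had a score of 973 and a signal value of 93.9. Neither replicate alone kept it, with scores of 482 and 512 and signal values of 38.6 and 61.0 in replicates 1 and 2. The weakest (III, 13704041 to 13704330) lay in the long intron near the start, with a score of 854 and a signal value of 54.9, rank 2306 of 2415. Its signal values were 32.5 and 31.5, at ranks 4601 and 4840 in replicates 1 and 2, and scores of 202 and 296 kept it out of both separate lists. None of the 3 lay within 1000 bp upstream of an annotated lit-1 5′ end. With the window limited to 1000 bp upstream and 200 bp downstream of a 5′ end, lit-1 dropped out and 4 of the 10 genes remained, against 6.08% of all protein-coding genes.

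The gene pop-1 encodes the worm TCF, the DNA-binding factor on which the pathway converges (I, 2822243 to 2830311, minus strand). All 11 of its ranked entries fell short of the threshold. The highest score was 353, in an intron 3123 bp past the start, at a signal value of 43.2, and the highest signal value was 52.8, in a coding exon with a score of 350. At the intron entry, replicate 1 had a signal value of 21.2 and replicate 2 had 31.0. Upstream of pop-1, beyond the 1000 bp limit, the main list kept a pair of weak peaks. The summit 1279 bp upstream had a signal value of 69.4, rank 2227, and was kept in replicate 1 alone, with 43.4 in replicate 1 and 26.98 in replicate 2. It lay inside the annotated genes W10C8.8 and W10C8.12. The summit 1711 bp upstream had a signal value of 74.3, rank 2106, and was kept in neither replicate alone, with 26.7 and 47.5. For both, the pop-1 5′ end was the nearest protein-coding one. Widening the window to 2000 bp upstream thus raised the count to 7 of 10 genes by adding hmp-2 and pop-1, while the share of all protein-coding genes became 10.8%.

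**Figure D2:**
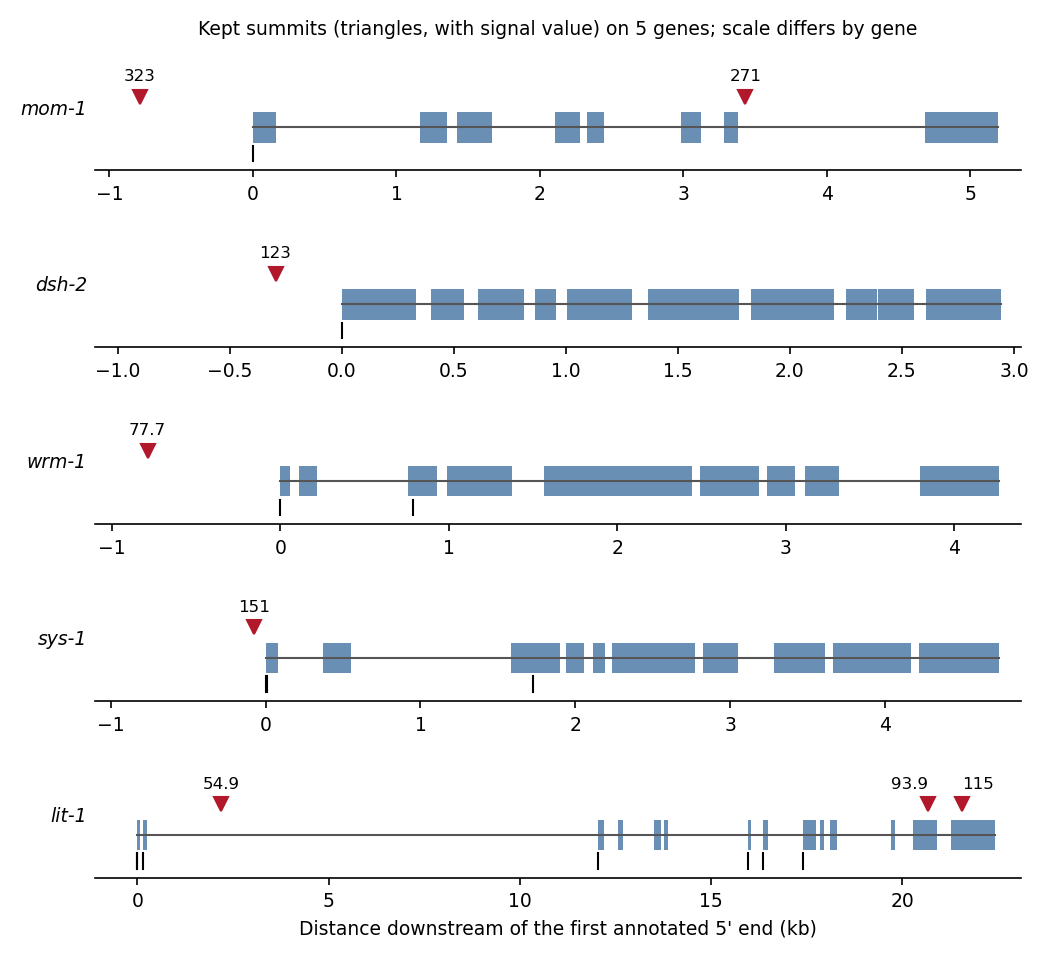
Positions of the 8 kept summits (triangles, labelled with the main-list signal value) along the 5 genes that hold them, in kb downstream of the first annotated 5′ end. Boxes are exons of all transcripts, ticks under the line are transcript 5′ ends, and the scale differs by gene. The mom-1, dsh-2, wrm-1 and sys-1 genes each have 1 summit upstream, whereas the 3 lit-1 summits lie inside that gene.

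Between the replicates, 3 of the 10 genes had a summit in replicate 1's own kept list (mom-1, sys-1 and lit-1) against 6.43% of all protein-coding genes. In replicate 2's list 5 of the 10 did, adding dsh-2 and wrm-1, against 5.13% of all. Of the 8 main-list peaks, 4 were kept by both replicates, 2 by replicate 2 alone, none by replicate 1 alone and 2 by neither. The genes with support from each replicate taken separately were mom-1, sys-1 and lit-1. With 2 replicates and no read counts in the lists, no error can be put on these values beyond the pair itself.

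**Figure D3:**
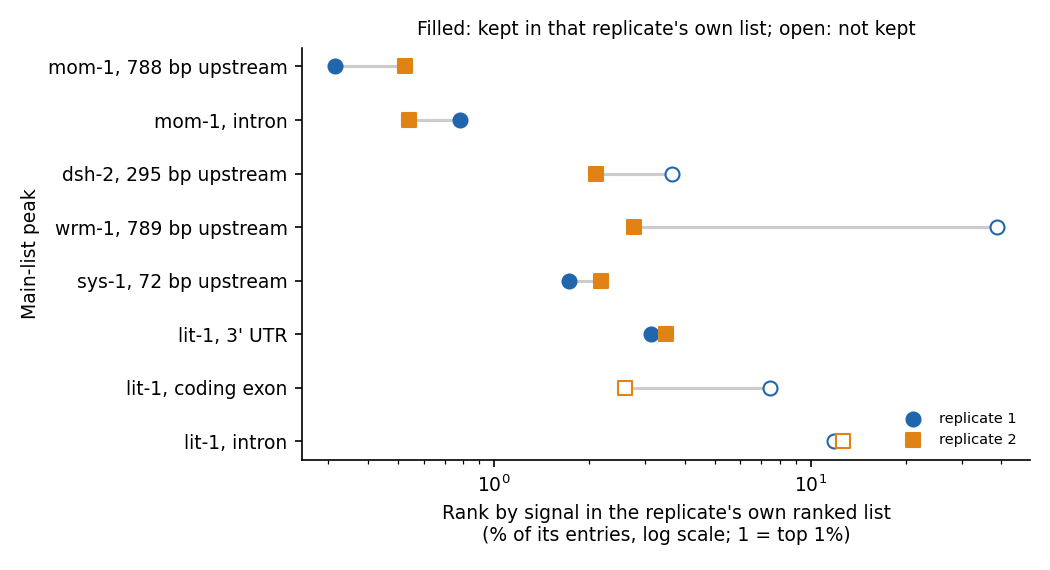
Rank of each of the 8 main-list peaks by signal value in the ranked list of replicate 1 (circles) and replicate 2 (squares), as percent of that list's entries on a log scale. Filled symbols were kept in that replicate's own list. The mom-1, sys-1 and lit-1 3′ UTR peaks are filled in both and within 3.49%, and the wrm-1 peak spans the widest range, from 2.77% to 38.7%.

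The words ATCGAT and ATTGAT, which were common at the summits of the whole list in an earlier look at these data, were searched on both strands. At least 1 occurred within 50 bp of the summit in 6 of the 8 peaks, as it did in 66.3% of all main-list peaks, in 21.1% of windows 300 to 400 bp away and in 13.2% of 101-bp windows across the genome. At this distance the members' peaks were therefore near the background of the list. Within 25 bp, 2 of the 8 had a word, against 51.3% of all main-list peaks. The nearest base of ATCGAT lay 12 bp left of the mom-1 intron summit, 14 bp right of the dsh-2 summit and 28 bp left of the sys-1 summit. ATTGAT, in either orientation, lay within 50 bp at wrm-1, the lit-1 intron and the lit-1 3′ UTR. The mom-1 peak over the tRNA gene had neither word within 100 bp, and the lit-1 coding exon peak had ATCGAT 74 bp away. A match describes these letters only.

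The bases around the words were partly shared. The dsh-2 and sys-1 sites had a run of 12 identical bases containing ATCGAT, and each had 11 in common with the lit-1 coding exon site. The mom-1 intron site had 7 in common with each of those sites, 1 more base than the word. Among the ATTGAT sites, wrm-1 had 8 in common with the lit-1 3′ UTR site and with the lit-1 intron site. The lit-1 3′ UTR and intron sites had 9 in common. How often other main-list sites share runs of such length was not counted. Most occurrences of the words at these genes had no peak: the windows of the 10 genes held 113 words, 6 of them (5.31%) within 50 bp of a kept summit. On the nuclear chromosomes, inside and outside gene windows, the share was 1.98% of 156375 words. The 10 genes were chosen with the peaks known and held 11.0 summits per 100 kb, against 2.64 over all protein-coding genes. These shares are therefore given as values only. The pop-1 window had 14 words and the mom-5 window 10, and neither window held a kept summit.

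**Figure D4:**
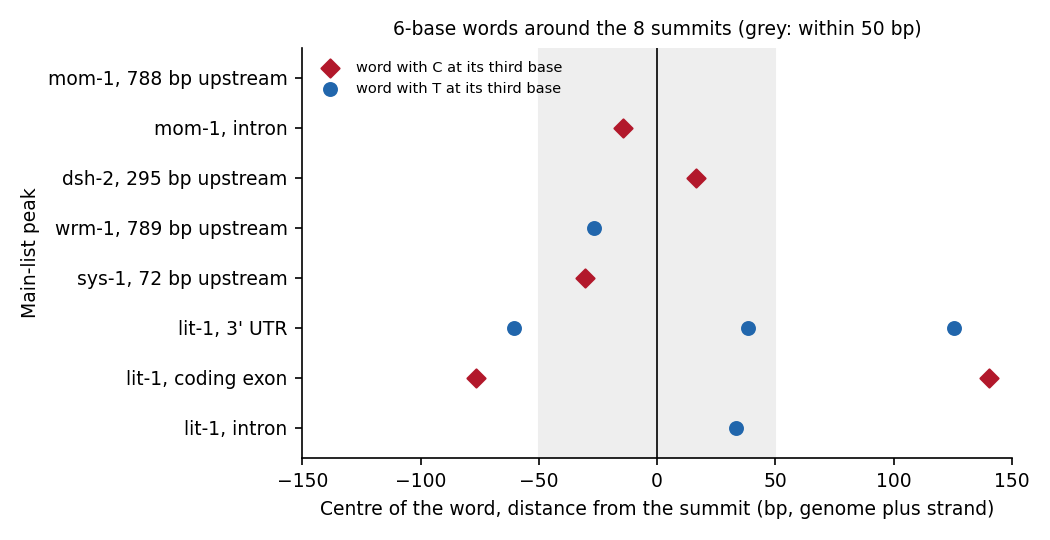
Centres of the 6-base words within 150 bp of each of the 8 summits, in bp on the plus strand. Diamonds are the palindromic word, circles are the other word, and the grey band marks 50 bp on either side. Of the 8 rows, 6 have a symbol in the band, and the row of the mom-1 upstream peak is empty.

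Gene length differs between these genes and the rest. Of the 10 genes, 8 belong to the 4991 longest protein-coding genes (3637 bp or more), in which 17.99% held a main-list summit, and 4 of those 8 did. Among the 4992 next longest, 8.01% of genes and 1 of the 2 members did. Per 100 kb of window, the 10 genes held 11.0 summits (8 in 72.7 kb), and without lit-1 10.1. The same measure was 2.64 over all protein-coding genes. As the genes were chosen with the peaks known, these densities are given as values only.

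Among 48 other genes of Wnt signalling, listed by textbook role with earlier results of these data known, 6 held a main-list summit. The share over all protein-coding genes was 9.1%. Of the 48, 27 are among the 4991 longest protein-coding genes, and 4 of those 27 held a summit, against 17.99% of the 4991. The density of the 48 genes was 2.63 summits per 100 kb, against the 2.64 of all protein-coding genes. None of the 4 other ligands (lin-44, cwn-1, cwn-2, egl-20), 7 receptors and their partners, 5 secretion genes or 2 other Dishevelled genes (dsh-1, mig-5) had one. With 9.1% of all protein-coding genes holding one, groups this small can hold none, so the counts are not compared between roles. Of 6 destruction complex and kinase genes, 2 held a summit, with values given as main-list signals. The gene lin-23, for an F-box protein of the ubiquitin ligase that degrades beta-catenin, had 118 at 948 bp upstream. The lin-23 summit lay nearer the 5′ end of a lincRNA gene, linc-27, at 478 bp. The gene pry-1, for the Axin, had 82.1, in a coding exon 5388 bp past its 5′ end. The nearest protein-coding 5′ end was that of another gene, 2918 bp away, and neither replicate alone kept the peak. The asymmetry kinase pathway contributed par-5, a 14-3-3 protein that takes part in POP-1 export, with a signal value of 149 at 129 bp upstream, in a promoter shared with M117.3. Of 4 cofactors, cbp-1, the histone acetyltransferase related to CBP and p300, had the strongest peak of the 48 genes, 228 at 149 bp upstream. Of 3 junction partners jac-1, the p120 catenin, had 127, in its 3′ UTR 8253 bp past its nearest 5′ end. Another gene's protein-coding 5′ end lay nearer to that summit, at 3499 bp. A weaker jac-1 peak, 92.0, lay in a coding exon 9 bp past a jac-1 5′ end. It was in the conservative list, though neither replicate alone kept it. Of 13 known targets egl-18, a GATA factor of the seam cells, had 81.2, in an intron. That egl-18 peak was absent from the conservative list. A weaker egl-18 peak, 76.6, also in an intron, lay 714 bp upstream of an annotated egl-18 5′ end. It was in the conservative list, though neither replicate alone kept it. The endoderm genes end-1 and end-3, which POP-1 regulates, had no kept summit.

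Of these 6 genes, lin-23, par-5 and cbp-1 were also kept in the separate lists of both replicates. At par-5 the signal values were 81.1 and 68.9, and at cbp-1 they were 129 and 107, in replicates 1 and 2. At lin-23 they were 52.2 and 65.0. Within each replicate, the par-5 value was close to that of sys-1.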

How the data were processed

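Peaks of T22C8.4::GFP chromatin immunoprecipitation were taken from the authors' thresholded lists (main 2415, conservative 2326, replicate 1 1629, replicate 2 1319) and ranked lists (pooled 55975). Per the labels the assembly is ce11 and chromatin was sonicated to 200 to 800 bp; which aligner and peak caller made the lists is not stated there (not given in the sources used). The deposited score is the authors' transform of the IDR, capped at 1000. The deposited signal value is their caller's; it has no unit and no common scale across lists. The deposited −log10 values were not used in a result. The summit came from the deposited offset; 81.1% of main-list peaks were 290 bp wide with the summit at the centre, which limits its resolution. The pooled ranked list's 8 columns describing its inputs were not used. Depth is unknown.

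Genes came from Ensembl release 115 (WBcel235). Overlap between lists required 1 bp. The analysis used Python 3.11.15 and pandas 2.3.3, and the assignment of summits to genes was tested on simulated data. With 1 group and no control, no test was made. The members, gene lists and words were chosen with earlier results of these data known. Named genes were all members, listed Wnt genes with a main-list summit, and protein-coding or tRNA neighbours within 1000 bp. Other non-coding neighbours were not all named. The main-list peaks up to 2000 bp upstream, C04G6.4, cest-16, linc-27 and the identical tRNA genes were added after their values were seen. So were the listed Wnt genes named as having no summit. Alternatives tried were the lists of single replicates, the conservative list, other windows, the nearest gene, interval overlap, the strongest peaks and a lower score limit.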

Additional observations from a re-analysis of the deposited data

How the results depend on the processing

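Leaving out a replicate gave 3 to 5 of the 10 genes, 3 to 5 of the 48 other Wnt genes and 5.13% to 6.43% of all protein-coding genes. Across the other alternatives the number of the 10 genes ranged from 4 to 7, the 7 being with 2000 bp upstream, while the share of all protein-coding genes ranged from 4.95% to 12.6%. With the 1207 strongest main-list peaks, 4 of the 10 genes and 4.95% of all protein-coding genes held a summit, and wrm-1 lost its peak. wrm-1 was also lost with 500 bp upstream and in the conservative list. With a score of at least 540 (IDR 0.05) the 10 genes still gave 5, the other Wnt genes with a summit numbered 11 against 6 in the main list, and the share of all protein-coding genes was 12.6% against 9.1%. A word lay within 25 bp of 2 of the 8 summits and within 100 bp of 7, against 51.3% and 74.6% of all main-list peaks. The strongest sys-1 peak stood at 25.4% of the main list by rank, 36.1% of replicate 1's list and 55.5% of replicate 2's; these lists differ in length, so such places are not compared. The cause was not tested. No paired analysis was possible because there was 1 group. Without read counts, depth is unknown, and a missing peak shows only that none was kept.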
